A study of Mus musculus with 4 samples.

Results

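The genes described here are the tubulin genes of cultured mouse muscle precursor cells with lowered *Hnrnpl*. They were chosen by name, with earlier results of these data known. The list holds the alpha-tubulin genes *Tuba1a*, *Tuba1b* and *Tuba1c*, the beta-tubulin genes *Tubb2a*, *Tubb2b*, *Tubb3*, *Tubb4b*, *Tubb5* and *Tubb6*, and the gamma-tubulin gene *Tubg1*. They are 10 of the 56748 gene IDs in the count files, and all 10 were among the 8670 genes that passed the filter on low counts. C2C12, an established mouse myoblast line labelled WT, was transfected with plasmids carrying either a scrambled shRNA or a mixture of 3 shRNAs against *Hnrnpl*, which encodes an RNA-binding regulator of splicing. The plasmids carried eGFP as a reporter. Cells were used as myoblasts in growth medium after the choice of green clones and of puromycin-resistant stable cultures. There were 2 scrambled and 2 knockdown libraries of nanopore direct RNA, in which each read is 1 RNA molecule, and the libraries of a group came from different passages of 1 selected line. The spread between libraries is therefore a spread between passages, and a difference between the selected lines cannot be told apart from the knockdown.

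Alpha-tubulin and beta-tubulin pair into the dimers that polymerise into microtubules, and gamma-tubulin starts new microtubules at the centrosome. Each class is made from several genes, called isotypes, whose proteins are nearly alike except in the acidic tail at the C-terminus, where motor proteins bind and where enzymes add or remove amino acids. The isotypes differ in where they are used. *Tubb5*, *Tubb4b*, *Tuba1b* and *Tuba1c* are made in most dividing cells, *Tubb3*, *Tubb2a*, *Tubb2b* and *Tuba1a* are best known from neurons, and *Tubb6* is known from muscle precursors and regenerating muscle fibres. Cells also adjust tubulin mRNA to the amount of free dimer: TTC5 recognises the start of the new tubulin chain on the ribosome and starts decay of its mRNA.

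The sequences of the tail show what separates the isotypes, and how little separates some of them. For 7 members the last 60 coding bases follow, 5′ to 3′ on the strand of each gene, with the stop codon in capitals, from the canonical transcripts of GENCODE vM39 on GRCm39.
Tuba1c: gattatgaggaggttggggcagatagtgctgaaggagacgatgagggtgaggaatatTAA
Tubb2a: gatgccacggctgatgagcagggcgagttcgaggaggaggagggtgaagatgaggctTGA
Tubb2b: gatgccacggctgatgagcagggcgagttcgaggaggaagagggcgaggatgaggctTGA
Tubb3: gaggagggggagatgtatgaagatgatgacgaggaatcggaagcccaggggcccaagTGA
Tubb4b: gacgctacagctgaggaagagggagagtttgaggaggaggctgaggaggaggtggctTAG
Tubb5: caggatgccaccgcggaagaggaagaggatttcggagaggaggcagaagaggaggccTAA
Tubg1: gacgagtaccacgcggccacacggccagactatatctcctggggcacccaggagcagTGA

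On the forward strand these ends lie at chr15:98935831-98935890 for *Tuba1c*, chr8:124148362-124148421 for *Tubb3* and chr11:101016996-101017055 for *Tubg1*. On the reverse strand they lie at chr13:34258451-34258510 for *Tubb2a*, chr13:34311454-34311513 for *Tubb2b*, chr2:25112320-25112379 for *Tubb4b* and chr17:36145874-36145933 for *Tubb5*. Over these bases *Tubb2a* and *Tubb2b* were 95% identical, whereas *Tubb3* shared 42.7% to 53.7% with the other beta members. The ends of *Tubb2a* and *Tubb2b* differ only by codons for the same amino acids, so they encode the same tail. Over the whole coding sequence the alpha members were 97.1% to 98.3% identical to each other, and *Tubb3* was 81.4% to 85.9% identical to the other beta members.

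The coding starts are shown, with the first 4 codons in capitals, because in alpha-tubulin and beta-tubulin they encode the chain end that TTC5 reads. The start of the gamma-tubulin gene *Tubg1* is given for comparison.
Tuba1a: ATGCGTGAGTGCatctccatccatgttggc
Tuba1b: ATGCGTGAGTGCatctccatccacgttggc
Tuba1c: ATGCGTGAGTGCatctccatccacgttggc
Tubb2a: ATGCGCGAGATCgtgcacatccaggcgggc
Tubb2b: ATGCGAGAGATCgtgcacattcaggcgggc
Tubb3: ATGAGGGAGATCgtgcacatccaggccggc
Tubb4b: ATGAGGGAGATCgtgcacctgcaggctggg
Tubb5: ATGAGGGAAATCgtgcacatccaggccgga
Tubg1: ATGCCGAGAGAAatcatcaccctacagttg

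These starts lie on GRCm39 at chr8:124138345-124138374 for *Tubb3* and chr11:101011020-101011049 for *Tubg1* on the forward strand. On the reverse strand they lie at chr13:34261883-34261912 for *Tubb2a*, chr13:34314187-34314216 for *Tubb2b*, chr2:25114573-25114602 for *Tubb4b* and chr17:36148916-36148945 for *Tubb5*. In the alpha members an intron follows the first codon. The start codon and the rest lie at chr15:98851332-98851334 and chr15:98849546-98849572 for *Tuba1a* and at chr15:98832214-98832216 and chr15:98831050-98831076 for *Tuba1b*, both on the reverse strand, and at chr15:98928303-98928305 and chr15:98931975-98932001 for *Tuba1c* on the forward strand. As bases, the first 4 codons were the same in *Tuba1a*, *Tuba1b* and *Tuba1c*, and the same in *Tubb3* and *Tubb4b*. Those of *Tubb2a*, *Tubb2b* and *Tubb5* differ from them only by codons for the same amino acids. All beta members shown therefore encode the same chain start. In the tests given next *Tuba1a* fell and *Tuba1b* and *Tuba1c* did not pass. Of the beta members shown, *Tubb3*, *Tubb2b* and *Tubb2a* fell and *Tubb4b* and *Tubb5* did not pass. Whether members with the same start differed from each other in their change was not tested.

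Of the 10 tubulin genes, 5 were called lower in the knockdown and none higher. The 5 were *Tubb3*, *Tubb2b*, *Tubb6*, *Tuba1a* and *Tubb2a*. To be called, a gene needed an adjusted p under 0.05 by edgeR's quasi-likelihood method, after Benjamini-Hochberg adjustment over all genes tested. It also needed a fitted change of over 0.5 on the log2 scale in either direction, and an average normalized count above 10. Over all 8670 genes 3.22% were called lower and 2.33% higher. The members were chosen with earlier results of these data known, so their count is not independent of that choice. The same 5 members had an unadjusted p under 0.05, and no member was called higher in any of the 4 DESeq2 configurations. The number called lower was 4, without *Tubb2a*, in all 4 DESeq2 configurations and without scrambled 2, knockdown 1 or knockdown 2. In 7 of the 10 both knockdown libraries lay under both scrambled libraries in normalized count, against 26.0% of all genes tested. The median log2 fold change of the members was -0.48, and that of all genes tested was 0.00. In these bulk libraries, fewer cells that express a gene and less of its RNA per cell cannot be told apart.

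**Figure D1:**
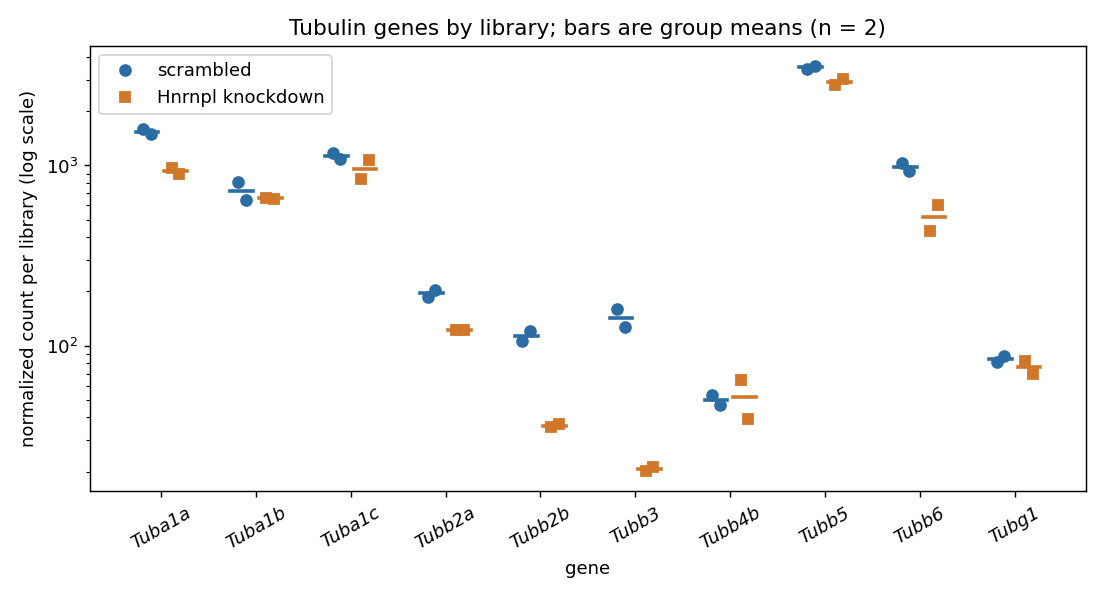
Normalized counts (log axis; library sizes made equal with the TMM factors) of the 10 tubulin genes in each library, with circles for scrambled, squares for knockdown and bars for the means of 2 libraries. The groups are farthest apart for *Tubb3* and *Tubb2b*, and overlap for *Tuba1b*, *Tubb4b* and *Tubg1*.

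Reads counted to genes came to 1387523 and 1676911 for scrambled 1 and 2, against 1374637 and 1229424 in knockdown 1 and 2. Counts on *Hnrnpl* were 358 and 656 in scrambled, against 242 and 258 in knockdown (log2 fold change -0.78, adjusted p = 0.0112 in edgeR). Leaving out scrambled 2 or knockdown 1 ended this call, at -0.48 and -0.63 with adjusted p = 0.194 and 0.150 in edgeR. With 1 library left out, here and for every gene, the lone library of a group is assumed to vary like the other group, which alone supplies the spread. By qPCR the paper also reports lower *Hnrnpl* in the knockdown cells. Of the 12 myoblast markers 8 had reads and 4 of the 6 tested fell in edgeR at an adjusted p under 0.05, *Cdh15*, *Chrna1*, *Ncam1* and *Des*, against 5.95% of all genes tested that passed in either direction. The call of *Des* was lost with the replicate block (adjusted p = 0.0526 in edgeR) and without scrambled 2, knockdown 1 or knockdown 2 (0.0970 to 0.297). Under the parametric fits of DESeq2 *Des* (adjusted p = 0.208 and 0.234) and *Ncam1* (0.0770 and 0.0875) no longer passed. No reads were found on *Myog*, *Mymk*, *Mymx* and *Pax7*, and 1 read in all on *Myod1*, a defining gene of myoblasts. Reads set aside in the counting are not assigned to genes in the files, so a low count of *Myod1* or of another marker may not mean that its RNA was absent. The summed level of these markers was 707 and 846 CPM, or reads scaled to equal library totals, in scrambled, against 476 and 395 in knockdown, and their part in the tubulin results was not tested. Of 5 fibroblast markers 3 had no reads, and the summed reads of all 5 were 5 to 12 per library.

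*Tubb3* (ENSMUSG00000062380.5, chr8:124138163-124150092, forward strand of GRCm39), the beta-tubulin best known as a marker of neurons, had 150 and 149 reads in scrambled 1 and 2, against 20 and 18 in knockdown 1 and 2. Both knockdown libraries were far under both scrambled libraries. As normalized counts, in which reads are scaled with edgeR's TMM factors to a library of average size, this was 143 ± 22.7 (SD, n = 2) in scrambled, against 20.7 ± 0.794 (SD, n = 2) in knockdown, 85.5% lower. The log2 fold change was -2.77 with a 95% interval of -3.26 to -2.29, and the adjusted p was 4.82e-07 in edgeR. The fold change of *Tubb3* was the farthest from 0 of the 10 members, and with 1 library left out it lay between -2.94 and -2.61. Its canonical exons overlap no other annotated gene. Of the nearest tested genes, *Tcf25* on one side had a log2 fold change of -0.01 (adjusted p = 0.987 in edgeR) and *Def8* on the other -0.66 (adjusted p = 0.263).

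*Tubb2b* (ENSMUSG00000045136.7, chr13:34307245-34315143, reverse strand), an isotype abundant in developing neurons, had 100 and 141 reads in scrambled, against 35 and 31 in knockdown. Again both knockdown libraries were under both scrambled libraries. Its normalized count was 113 ± 9.95 (SD, n = 2) in scrambled, against 35.9 ± 0.972 (SD, n = 2) in knockdown, which is 68.2% lower. Its log2 fold change was -1.65 (95% interval -2.09 to -1.22, adjusted p = 7.47e-05 in edgeR). *Tubb2a* (ENSMUSG00000058672.8, chr13:34257549-34261998, reverse strand), its neighbour and closest relative in sequence, had 175 and 241 reads in scrambled, against 121 and 103 in knockdown. The groups did not overlap here either, and the normalized counts of the knockdown libraries were nearly the same, at 122 ± 0.123 (SD, n = 2) against 195 ± 13.9 (SD, n = 2) in scrambled. *Tubb2a* fell by 0.68 on the log2 scale (95% interval -1.02 to -0.35, adjusted p = 0.0150 in edgeR). This call was lost in all 4 DESeq2 configurations, with adjusted p from 0.0614 to 0.282, and without scrambled 2 (adjusted p = 0.0949 in edgeR), knockdown 1 (0.0990) or knockdown 2 (0.0554). Of the exon bases of *Tubb2a*, 89.1% are also covered by *Bphl* on the opposite strand, which had 23 and 31 reads in scrambled, against 31 and 22 in knockdown.

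*Tubb6* (ENSMUSG00000001473.8, chr18:67523585-67536773, forward strand), the isotype known from muscle precursors, had 976 and 1091 reads in scrambled, against 430 and 514 in knockdown. Its normalized count was 980 ± 74.4 (SD, n = 2) in scrambled, against 520 ± 123 (SD, n = 2) in knockdown, without overlap and 46.9% lower. The log2 fold change was -0.92 (95% interval -1.25 to -0.59, adjusted p = 0.00148 in edgeR). Tested genes of its chromosome had a median of -0.28. With that median taken off, *Tubb6* stood at -0.64 (adjusted p = 0.0269 in edgeR).

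*Tubb5* (ENSMUSG00000001525.11, chr17:36144809-36149198, reverse strand), the main beta-tubulin of these cells, had 3263 and 4184 reads in scrambled, against 2766 and 2571 in knockdown. Both knockdown libraries were under both scrambled libraries in normalized count, at 2912 ± 178 (SD, n = 2) against 3506 ± 74.0 (SD, n = 2). The log2 fold change of -0.27 did not pass the test (95% interval -0.56 to 0.02, adjusted p = 0.270 in edgeR), and it was -0.46 (adjusted p = 0.0764) with the chromosome medians removed. *Tubb4b* (ENSMUSG00000036752.5, chr2:25112170-25114714, reverse strand), another widely used isotype, had 50 and 55 reads in scrambled, against 64 and 33 in knockdown. Its knockdown libraries lay on either side of the scrambled libraries. The log2 fold change was 0.08 with a wide interval of -0.46 to 0.62 (adjusted p = 0.899 in edgeR), and the knockdown libraries differed more from each other than the group means did.

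Among the alpha-tubulin genes, which lie together on chromosome 15, only *Tuba1a* passed the test. *Tuba1a* (ENSMUSG00000072235.7, chr15:98847714-98851589, reverse strand), the alpha isotype best known from young neurons, had 1513 and 1748 reads in scrambled, against 959 and 759 in knockdown. The normalized counts were 1544 ± 81.2 (SD, n = 2) in scrambled, against 931 ± 48.9 (SD, n = 2) in knockdown, without overlap. *Tuba1a* fell by 0.73 on the log2 scale (95% interval -1.01 to -0.44, adjusted p = 0.00288 in edgeR), and with 1 library left out the log2 fold change ranged from -0.79 to -0.68.

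*Tuba1b* (ENSMUSG00000023004.9, chr15:98827738-98832493, reverse strand) had 765 and 753 reads in scrambled, against 659 and 552 in knockdown. Its normalized counts overlapped between the groups, since scrambled 2 at 640 was the lowest of the 4 libraries, and the log2 fold change was -0.14 (95% interval -0.44 to 0.16, adjusted p = 0.623 in edgeR). *Tuba1c* (ENSMUSG00000043091.10, chr15:98927748-98936266, forward strand) had 1115 and 1272 reads in scrambled, against 836 and 904 in knockdown. Knockdown 2, at a normalized count of 1068, came close to scrambled 2 at 1082, and the log2 fold change of -0.25 did not pass the test (95% interval -0.55 to 0.06, adjusted p = 0.343 in edgeR). Without knockdown 1 it was -0.082, and without knockdown 2 it was -0.43. With the chromosome medians removed *Tubb4b* was at 0.13, *Tuba1b* at -0.034 and *Tuba1c* at -0.14.

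*Tubg1* (ENSMUSG00000035198.10, chr11:101010744-101017251, forward strand), which encodes the gamma-tubulin that starts microtubules, had 77 and 103 reads in scrambled, against 82 and 59 in knockdown. Its groups overlapped at a normalized count of 84.6 ± 4.31 (SD, n = 2) in scrambled, against 76.2 ± 9.11 (SD, n = 2) in knockdown, for a log2 fold change of -0.15 (95% interval -0.55 to 0.25, adjusted p = 0.705 in edgeR). It was -0.28 without knockdown 1, -0.10 without scrambled 2 and -0.039 both without knockdown 2 and with the chromosome medians removed.

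**Figure D2:**
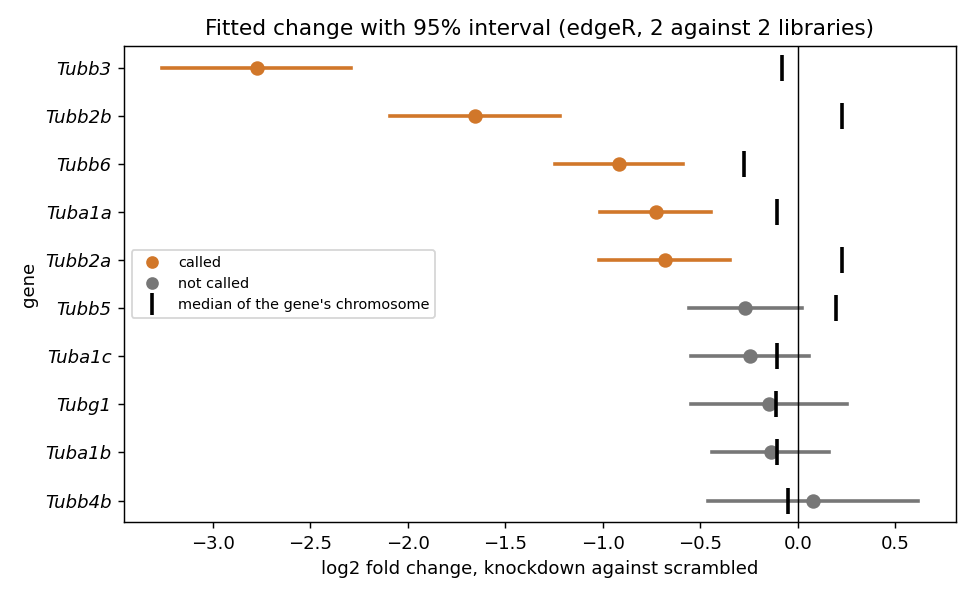
Log2 fold change of each tubulin gene, knockdown against scrambled, as points with 95% intervals from edgeR (2 against 2 libraries), and the median of all tested genes of its chromosome as a vertical tick. The intervals of the 5 called genes end below 0, from *Tubb3* at -2.77 to *Tubb2a* at -0.68, and the intervals of the 5 others cross 0.

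The summed reads of the alpha and of the beta members were each lower in both knockdown libraries. The 10 genes together took 0.590% and 0.581% of the counted reads in scrambled 1 and 2, against 0.434% and 0.451% in knockdown 1 and 2. As normalized counts the sum was 25.8% lower in knockdown, with 8471 ± 270 (SD, n = 2) in scrambled, against 6282 ± 379 (SD, n = 2) in knockdown. The alpha members summed to 3591 and 3209 in scrambled, against 2472 and 2617 in knockdown, 25.2% lower. The beta members summed to 4989 and 4984 in scrambled, against 3461 and 3863 in knockdown, 26.6% lower. Beta members other than *Tubb5* were 49.3% lower. The exact permutation test over libraries gave p = 0.333 for each sum, the smallest it can give. The ratio of beta to alpha reads was 1.39 and 1.55 in scrambled, against 1.40 and 1.48 in knockdown, so the groups overlapped in the balance of the classes.

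Compared per kilobase of canonical transcript, the levels covered a wide range. In scrambled, *Tubb5* was highest at 1322 ± 27.9 normalized counts per kb (SD, n = 2), followed by *Tuba1a* at 854 ± 44.9, *Tuba1c* at 496 ± 30.5, *Tubb6* at 337 ± 25.5 and *Tuba1b* at 216 ± 35.7. *Tubb2a* at 83.9 ± 6.0 came next, then *Tubg1* at 46.3 ± 2.36, *Tubb3* at 44.5 ± 7.07, *Tubb4b* at 31.1 ± 2.72 and *Tubb2b* at 19.5 ± 1.72. The libraries of *Tubg1* and *Tubb3* overlapped in level per kb, and those of the other neighbours in this order did not. In knockdown, *Tubb3* at 6.46 ± 0.248 per kb (SD, n = 2) had moved below *Tubb4b* at 32.3 ± 11.3 and stood beside *Tubb2b* at 6.20 ± 0.168, with overlapping libraries. *Tubb6* at 178 ± 42.3 and *Tuba1b* at 196 ± 2.43 overlapped as well, as did *Tubb4b* and *Tubg1* at 41.7 ± 4.99. This order depends on the division by length, which need not suit direct RNA reads: as normalized counts in scrambled, *Tubb3* at 143 and *Tubb2b* at 113 stood above *Tubg1* at 84.6 and *Tubb4b* at 49.9.

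The share of each isotype among the reads of its class does not depend on library size or scaling. *Tubb5* supplied 69.2% and 71.4% of the reads on the beta members in scrambled 1 and 2, against 80.5% and 78.6% in knockdown 1 and 2. The groups did not overlap, and the 95% exact binomial intervals, which cover counting error only, ran from 67.9% to 72.5% over the scrambled libraries and from 77.2% to 81.8% over the knockdown libraries. This share of *Tubb5* was 9.26 points higher in knockdown, 11.3 points in batch 1 and 7.24 points in batch 2. Its own normalized count was lower in knockdown and had not passed the test. Shares are parts of a whole, so a share can rise while the gene's own count does not. *Tubb6* supplied 20.7% and 18.6% in scrambled, against 12.5% and 15.7% in knockdown. *Tubb3* supplied 3.18% and 2.54% in scrambled, against 0.582% and 0.551% in knockdown. The share of *Tubb2b* was 2.12% and 2.41% in scrambled, against 1.02% and 0.948% in knockdown, and that of *Tubb2a* was 3.71% and 4.11% against 3.52% and 3.15%. All 4 of these were lower in both knockdown libraries, and *Tubb4b*, at 0.938% to 1.86%, overlapped between the groups. Its difference was 0.436 points, 0.010 without knockdown 1 and 0.863 without knockdown 2. The *Tubb2a* difference was -0.576 points, and -0.377 without scrambled 2.

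Of the reads on the alpha members, *Tuba1a* supplied 44.6% and 46.3% in scrambled, against 39.1% and 34.3% in knockdown. Its share was lower by 5.51 points within batch 1 and by 12.1 points within batch 2. *Tuba1b* supplied 22.6% and 20.0% in scrambled, against 26.9% and 24.9% in knockdown, and *Tuba1c* 32.9% and 33.7% in scrambled, against 34.1% and 40.8% in knockdown. Both shares were higher in both knockdown libraries, although *Tuba1c* in knockdown 1 was close to scrambled 2. The mean normalized counts of *Tuba1b* and *Tuba1c* were lower in knockdown and had not passed the test. The difference in the *Tuba1c* share was 4.15 points with all libraries, 0.779 points without knockdown 2 and 7.53 points without knockdown 1. The exact permutation test gave p = 0.333 for each of these shares and 0.667 for *Tubb4b*. *Tuba1a* supplied the largest alpha share in both scrambled libraries and in knockdown 1, and *Tuba1c* in knockdown 2.

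**Figure D3:**
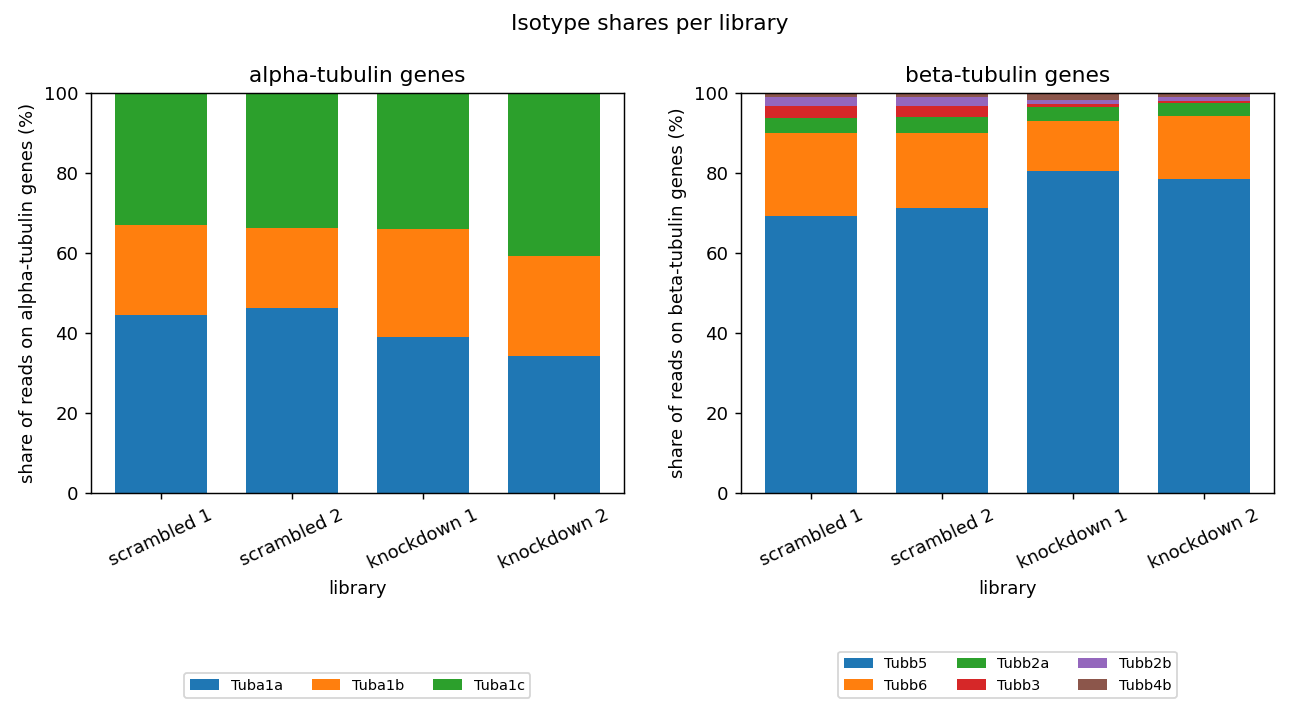
Share of the reads on the alpha members (left, %) and on the beta members (right, %) that each isotype supplied in each library. The *Tubb5* share stands at 69.2% and 71.4% in scrambled, against 80.5% and 78.6% in knockdown, and the *Tuba1a* share is lower in both knockdown libraries.

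How far reads can be told apart differs between these genes, which bears on the levels and shares above. Of all 31-base stretches of the coding sequence, 91.4% in *Tuba1a*, 96.1% in *Tuba1b* and 93.0% in *Tuba1c* also occur elsewhere in GRCm39, against 3.60% in *Tubb5* and little more in *Tubb6*. For *Tubb2a* and *Tubb2b* it was 69.6% and 77.4%, and for *Tubb3* 26.8%. The 3′ untranslated regions, which direct RNA reads enter first, were more distinct in all of these but *Tubb5*. The share of stretches found elsewhere there was 22.8% for *Tuba1a*, 7.32% for *Tuba1b*, 16.8% for *Tuba1c*, 0% for *Tubb2a*, 8.95% for *Tubb2b*, 11.6% for *Tubb3* and 12.8% for *Tubb5*. In *Tubb4b* it was 94.2%, on an untranslated region of only 150 bases. The authors set aside 22.7% to 23.8% of reads for low mapping quality and 16.0% to 16.5% as ambiguous between genes in the 4 libraries, and how many of these reads came from tubulin genes was not tested. Reads on annotated tubulin pseudogenes came to 1 in all, on *Tubb4b-ps1*. Exons of *Tubb5* overlap *Flot1* on the opposite strand over 43.9% of their length and those of *Tubb6* overlap *Afg3l2* over 34.7%. *Flot1* was given 36 to 105 reads and *Afg3l2* 66 to 98, which does not count reads set aside as ambiguous. Exons of *Tuba1a* and *Tuba1b* overlap the protein-coding gene *Gm49450* on the same strand, over 26.2% and 12.7% of their length, and that gene had no reads. The remaining overlaps are with genes on the opposite strand, and the longest of them are those of *Tubb6* with *Gm58538* (30%), *Tuba1a* with *Gm41396* (25.9%), *Tubg1* with *Retreg3* (17.8%), *Tuba1b* with *Gm41396* (16.8%) and *Tuba1a* with *B430209F14Rik* (13.7%). The strand setting of the counting was not given in the sources used here, and the effect of these overlaps was not tested.

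The promoters of *Tubb3*, which fell most, and *Tubb4b*, which did not pass the test, are shown as the 250 bases before the RefSeq start of each gene. The build is GRCm38.p6, at chr8:123411303-123411552 on the forward strand for *Tubb3* and chr2:25224703-25224952 on the reverse strand for *Tubb4b*. Promoters of 7 of the 10 members were read from the RefSeq promoter table, and those of the others are not reported here. Capitals mark CCAAT on either strand.
Tubb3: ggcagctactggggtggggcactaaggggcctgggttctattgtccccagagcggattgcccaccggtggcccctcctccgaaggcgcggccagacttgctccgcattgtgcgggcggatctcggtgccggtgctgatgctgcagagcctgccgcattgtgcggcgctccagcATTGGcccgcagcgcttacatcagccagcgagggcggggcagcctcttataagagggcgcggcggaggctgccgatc
Tubb4b: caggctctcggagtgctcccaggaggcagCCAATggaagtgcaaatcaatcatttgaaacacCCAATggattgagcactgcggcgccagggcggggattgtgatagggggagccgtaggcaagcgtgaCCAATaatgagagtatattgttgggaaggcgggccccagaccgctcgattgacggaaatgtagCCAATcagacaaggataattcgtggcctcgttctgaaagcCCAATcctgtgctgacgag

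*Tubb4b* held 5 matches to CCAAT in this window and *Tubb3* held 1, and of the 32851 RefSeq promoters 33.8% held at least 1. Among the others read from the same table, *Tubb5* held 2, *Tuba1a* and *Tuba1c* 1 each, and *Tuba1b* and *Tubb2a* none. The motif CANNTG, the E-box bound by muscle transcription factors, was found in 66.2% of all promoters. *Tubb3* held none, and the other 6 members whose promoters were read held 1 each. A match describes letters in the window and is not a measured site.

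Few or no reads were counted on the remaining tubulin genes, and reads set aside in the counting could not be assigned to them. Of the 10 others listed, *Tuba3a*, *Tuba3b*, *Tuba8*, *Tubal3*, *Tubb1*, *Tubb4a* and *Tubg2* had no reads in any library, where a count of 0 allows up to 3 counts, or 1.79 to 2.44 CPM. *Tuba4a*, the alpha isotype of mature muscle and brain, had 14 and 2 reads in scrambled, against 20 and 9 in knockdown, and its log2 fold change of 1.03 did not pass the test (SE 0.59, adjusted p = 0.330 in edgeR). This value rests on single libraries, since it was 3.11 without scrambled 1 (adjusted p = 0.0293 in edgeR) and 0.074 without scrambled 2. *Tubd1*, a delta-tubulin of the centriole, had 10 and 10 reads in scrambled, against 3 and 4 in knockdown, and *Tube1*, the epsilon-tubulin, 10 and 10 against 11 and 7. Both were too low to be tested.

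Genes that fold, modify and organise tubulin were counted in lists, beside lists of other tubulin genes, proliferation genes and neuronal markers. Over these 8 lists of 108 genes, 71 were tested, and 1 rose (*Ttll7*, modification) and 2 fell (*Pfdn1*, folding, and *Nefl*, a neuronal marker) at an adjusted p under 0.05 in edgeR. Of all genes tested 5.95% passed in either direction, so the count is near the background and is not a result about the lists. Of the 13 tested folding genes (prefoldin subunits, cofactors and partners of the chaperonin), 1 fell, and their median log2 fold change was -0.06. That gene, *Pfdn1*, a subunit of the prefoldin that carries new tubulin to the chaperonin, had 380 and 427 reads in scrambled, against 237 and 250 in knockdown. *Pfdn1* fell by 0.52 (log2; SE 0.15; adjusted p = 0.0475 in edgeR). This call was lost with RLE factors (adjusted p = 0.0513 in edgeR), upper quartile factors (0.0516) and the replicate block (0.0731), with the chromosome medians removed (0.504), in the 4 DESeq2 configurations (0.101 to 0.398) and without scrambled 1 (0.206), scrambled 2 (0.0623) or knockdown 1 (0.300). Of the 13 tested modification genes 1 rose and none fell, with a median of 0.11. *Ttll7*, which adds glutamates to the beta-tubulin tail, had 43 and 54 reads in scrambled, against 90 and 66 in knockdown and rose by 0.89 (log2; SE 0.21; adjusted p = 0.0163 in edgeR). This call was lost without knockdown 1 (adjusted p = 0.134 in edgeR) and in the 4 DESeq2 configurations (0.133 to 0.467).

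None of the 9 tested genes of the gamma-tubulin ring complex and its anchors passed the edgeR test, none had an unadjusted p under 0.05 and none passed in DESeq2, and their median was 0.23. Of 13 genes of severing enzymes and plus-end proteins none passed in edgeR or DESeq2, 2 had an unadjusted p under 0.05, and the median was 0.05. The genes of tubulin mRNA autoregulation gave 0 of 4 past the edgeR test, 0 with an unadjusted p under 0.05 and 0 in DESeq2. Among them *Ttc5*, the factor that recognises new tubulin chains, had 41 and 41 reads in scrambled, against 21 and 25 in knockdown, without overlap (log2 fold change -0.63, adjusted p = 0.230 in edgeR). It was -0.39 without knockdown 1 and -0.27 with the chromosome medians removed (adjusted p = 0.756). Of 15 tested proliferation genes none passed in edgeR or DESeq2 and 4 had an unadjusted p under 0.05, with a median of -0.15. Their summed level was 2584 and 2605 CPM in scrambled, against 2433 and 2546 in knockdown, and their part in the tubulin results was not tested.

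Because several of the lowered isotypes are known from neurons, neuronal genes were counted too. Of 15 neuronal markers, *Map2*, *Rbfox3*, *Snap25*, *Elavl3*, *Elavl4*, *Dcx* and *Stmn3* had no reads, and 3 passed the filter. Of these, *Nefl*, a neurofilament subunit, had 78 and 152 reads in scrambled, against 54 and 42 in knockdown and fell by 1.04 (log2; SE 0.23; adjusted p = 0.00895 in edgeR). Without scrambled 2 or knockdown 1 this call was lost, at -0.67 and -1.11 with adjusted p = 0.169 and 0.0663 in edgeR, and it was lost with the chromosome medians removed (-0.68, adjusted p = 0.127) and under the parametric fits of DESeq2 (0.183 and 0.208). The summed level of the 15 markers was 106 and 161 CPM in scrambled, against 73.5 and 74.0 in knockdown. Their part in the tubulin results was not tested.

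Genes beside the tubulin genes were read as a local comparison. Of the nearest 2 tested genes on each side of a member, 28 distinct genes were not members themselves, and of these 1 had an adjusted p under 0.05 in edgeR, a share below the 5.95% of all genes tested and no result about the neighbours. This was *Coa3* near *Tubg1*, which encodes an assembly factor of cytochrome oxidase and had 73 and 129 reads in scrambled, against 39 and 31 in knockdown (log2 fold change -1.31, adjusted p = 0.00196), a call lost under the parametric fits of DESeq2 (0.0546 and 0.0626). *Psmg4*, beside *Tubb2b*, had a log2 fold change of 0.01 (adjusted p = 0.984 in edgeR), and *Bphl*, which lies across *Tubb2a*, 0.18 (adjusted p = 0.789). The value of *Bphl* was 0.032 to 0.293 with 1 library left out and -0.048 with the chromosome medians removed.

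**Figure D4:**
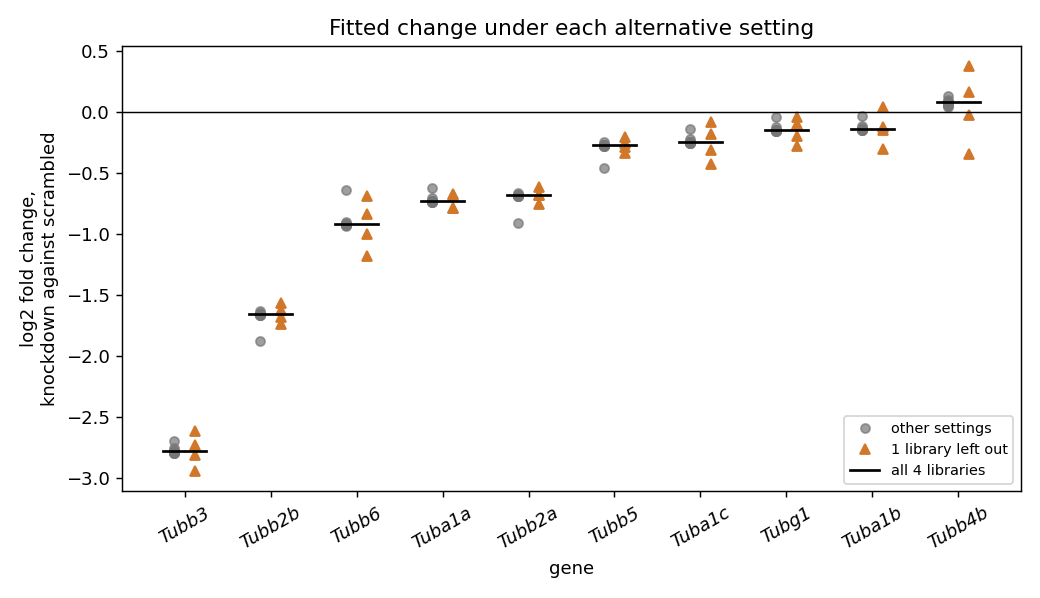
Log2 fold change of each tubulin gene under every alternative way of processing (circles), with 1 library left out (triangles) and with all 4 libraries (bars). *Tubb3* stays between -2.94 and -2.61 and *Tubb2b* between -1.88 and -1.56, while *Tuba1b* and *Tubb4b* lie on both sides of 0.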

How the data were processed

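RNA of 4 C2C12 cultures was sequenced as nanopore direct RNA. The authors mapped reads to GRCm39 and counted them per gene, and deposited whole counts without normalization. Their processing notes name minimap2 2.17, SAMtools and HTSeq 0.9.1. The annotation release and strand setting are not given in the sources used here. Rows that name no gene held the reads set aside, and 56.5% to 57.8% of reads were counted to genes. Symbols came from GENCODE vM39 for 56017 of 56748 gene IDs.

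Counts were compared in edgeR 4.0.16 (R 4.3.3) (TMM, filterByExpr, group-only design, quasi-likelihood test), with Benjamini-Hochberg adjustment over the 8670 genes tested. DESeq2 1.42.0 was an alternative. The code was tested on simulated data. Shares and sums were compared by two-sided exact permutation over libraries, where 2 against 2 cannot go below p = 0.333. Intervals of shares are 95% Clopper-Pearson intervals. Counting error alone would give a chi-square per gene near 1 between libraries of a group, and it was 2.40 in scrambled and 2.59 in knockdown.

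Replicate numbers are batches in the labels, so they pair the libraries. The deviations of same-numbered libraries had a correlation of 0.00597 over 4522 genes. The replicate block was an alternative.

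The members and lists were chosen with earlier results of these data known. The genes named are the 10 members, *Hnrnpl*, listed genes with an adjusted p under 0.05, other tubulin genes with reads, annotated tubulin pseudogenes with an adjusted p under 0.05 and the nearest 2 tested genes on each side of a member. *Ttc5*, *Myod1*, *Uchl1*, *Nefm*, genes without reads, *Tubb4b-ps1* and the genes that overlap members were named after their values were seen. Some coding ends are not reported here. Overlaps and 31-base stretches were computed on canonical transcripts and GRCm39. The fit was also run with upper quartile or RLE factors, without a filter or with 10 counts required in each library, with legacy = FALSE, with chromosome medians removed, without mitochondrially encoded genes and *Rn18s*, and without each library. Those of the class sums were chosen after seeing the data.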

Additional observations from a re-analysis of the deposited data

How the results depend on the processing

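With 2 libraries per group and 1229424 to 1676911 counted reads, the intervals of genes with few reads, such as *Tubb4b* and *Tubg1*, were wide. Of 160 alternative values of the log2 fold changes of the members (16 per gene), 150 kept their direction and their side of the threshold, 7 of *Tubb2a* no longer passed it, and 3 changed sign in genes that had not passed: *Tuba1b* at 0.038 without scrambled 1 (adjusted p = 0.949 in edgeR), and *Tubb4b* at -0.023 without scrambled 2 (0.979) and -0.35 without knockdown 1 (0.596). With 1 library left out, *Tuba1b* ranged from -0.307 to 0.038 and *Tubb4b* from -0.347 to 0.375. The number of members called lower was 4 or 5 under every alternative tried, the 4 without *Tubb2a*, and none was called higher. *Tubb3*, *Tubb2b*, *Tubb6* and *Tuba1a* passed under the 12 that kept all 4 libraries. They also passed with 1 library left out, where the lone library is assumed to vary like the other group. With the replicate block 5 members were lower, as without it, *Tubb3* at -2.78 (adjusted p = 3.08e-08 in edgeR), and of the genes of the 8 lists 1 was lower in place of 2. It ended the calls of *Pfdn1* and *Des*, and the block changed no other call of a member, of *Hnrnpl*, of *Coa3* or of a listed gene named for its call.

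The log2 fold change of *Hnrnpl* was -0.78 and no longer passed under the parametric fits of DESeq2 (adjusted p = 0.0567 and 0.0670), and it ranged from -1.03 to -0.48 with 1 library left out. Of the genes of the 8 lists, the 2 lower became 1 with RLE factors, upper quartile factors and the local fits of DESeq2, 0 with its parametric fits and with the chromosome medians removed, and 0 to 3 with 1 library left out. The 1 higher became 0 in all 4 DESeq2 configurations and 0 to 2 with 1 library left out. The share of *Tubb2b* was -0.61 points in knockdown against scrambled when reads were taken per kb, in place of -1.28, which follows from its long transcript. The other shares moved by less than the spread between libraries with other denominators and per kb, and the class sums with counts scaled by library total. Leaving out 1 of 2 libraries cannot exceed that spread by construction and says nothing of stability. The sum of the 10 members differed by -2457 to -1921 normalized counts with 1 library left out and by -2189 with all 4. The causes of the lost calls were not tested.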
